A study of Mus musculus with 4 samples.

Results

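The cadherins and non-clustered protocadherins comprised 34 of the 22180 genes measured. They were the genes with a symbol of the form Cdh or Pcdh followed by a number, taken from probe sets that carry exactly 1 gene symbol. Where a gene had several such probe sets, the one with the highest mean over the 4 arrays was used. The cells were mouse skeletal stem cells (SSCs), which give rise to bone, cartilage and marrow stroma, and both groups came from animals 4 to 6 weeks old and spent 48 h in 3D collagen gel. The Mmp14 knockout group and the wild type group (Mmp14+/+) had 2 Affymetrix arrays each. Mmp14 encodes MT1-MMP, a membrane-anchored protease that cleaves fibrillar collagen. The labels used here do not say which part of Mmp14 was deleted, in which cells or by what Cre, how the SSCs were isolated, or whether each array stands for its own animal, pool or culture. The p-values therefore reflect only how far the arrays of a group lay apart, in the gene itself and in the other genes fitted with it. That spread could be technical.

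Cadherins are calcium-dependent adhesion proteins of the cell surface. The classical type I and type II cadherins bind like molecules on neighbouring cells and are tied to actin through β-catenin, p120-catenin and α-catenin. N-cadherin (Cdh2) and OB-cadherin (Cdh11) are the classical cadherins best known from osteoblasts and their mesenchymal precursors. Many non-clustered protocadherins are sorted into δ1 and δ2 groups by their cytoplasmic motifs. Non-clustered protocadherins lack the catenin-binding tail and are best known for cell sorting and axon growth in the embryo and brain.

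Signals are given as deposited, as log2 intensities. The Mmp14 signal was 5.77 and 5.84 in the knockout arrays, against 8.77 and 8.83 in the wild type arrays. Its difference (knockout minus wild type) was -2.99 ± 0.10 (SE) on the log2 scale, with an adjusted p of 0.000278 in limma, in the direction the labels of all 4 arrays give. The SSC and stromal markers measured, 11 in all, passed the filter on dim genes. In knockout cells 4 of them were called higher (Cxcl12 1.81, Pdgfra 1.77, Cd200 1.46 and Nt5e 1.10) and 7 were not called. Of those 7, Itgav (0.58) and Pdgfrb (0.35) had positive differences, and Thy1 (-0.50), Eng (-0.23), Col1a2 (-0.20), Col1a1 (-0.16) and Prrx1 (-0.01) had negative ones. The arrays also differed in genes that depend on the sex of the animals. Xist, made from the inactive X chromosome, was higher in knockout by 0.73 (adjusted p = 0.0155, limma), and the Y-linked Eif2s3y was lower by a difference of -0.69 (adjusted p = 0.0474). Kdm5d and Uty, also Y-linked, gave -0.42 and -0.25 and were not called. Eif2s3y passed the threshold with all 4 arrays but missed it without knockout replicate 1, knockout replicate 2 or wild type replicate 1, and Xist missed it without knockout replicate 1. The labels do not give the sex of the animals, and its part in the results below was not tested.

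A gene was tested if its mean over the 4 arrays reached 2.34, the median signal of all probe sets, and it was called if its Benjamini-Hochberg adjusted p in limma, taken over all 12708 tested genes, was below 0.05. Of the 34 members, 17 were tested and 17 lay under the filter. The filter lay just below Cdh4, Cdh15 and Cdh18, whose means were 2.36, 2.39 and 2.49. Just outside were Cdh10, Cdh23 and Cdh22, with means of 2.28, 2.16 and 2.15. Among the tested members 9 were called, 4 higher and 5 lower in knockout cells, and 8 were not called. Over all tested genes 11.3% were called, with 6.2% higher and 5.12% lower. The median difference of the tested members was 0.09, and the median of all tested genes was -0.0041. The median absolute difference of the tested members was 0.52, against 0.18 for all tested genes. Over all 34 members it was 0.29, against 0.13 over all 22180 genes. The summaries of tested members cover those that passed the filter, and some passed only through 1 group: the knockout means of Pcdh17 (2.14), Cdh18 (2.24) and Cdh15 (2.30) and the wild type mean of Cdh4 (2.17) were below it. In bulk RNA, fewer cells of a type and less RNA per cell cannot be told apart.

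**Figure D1:**
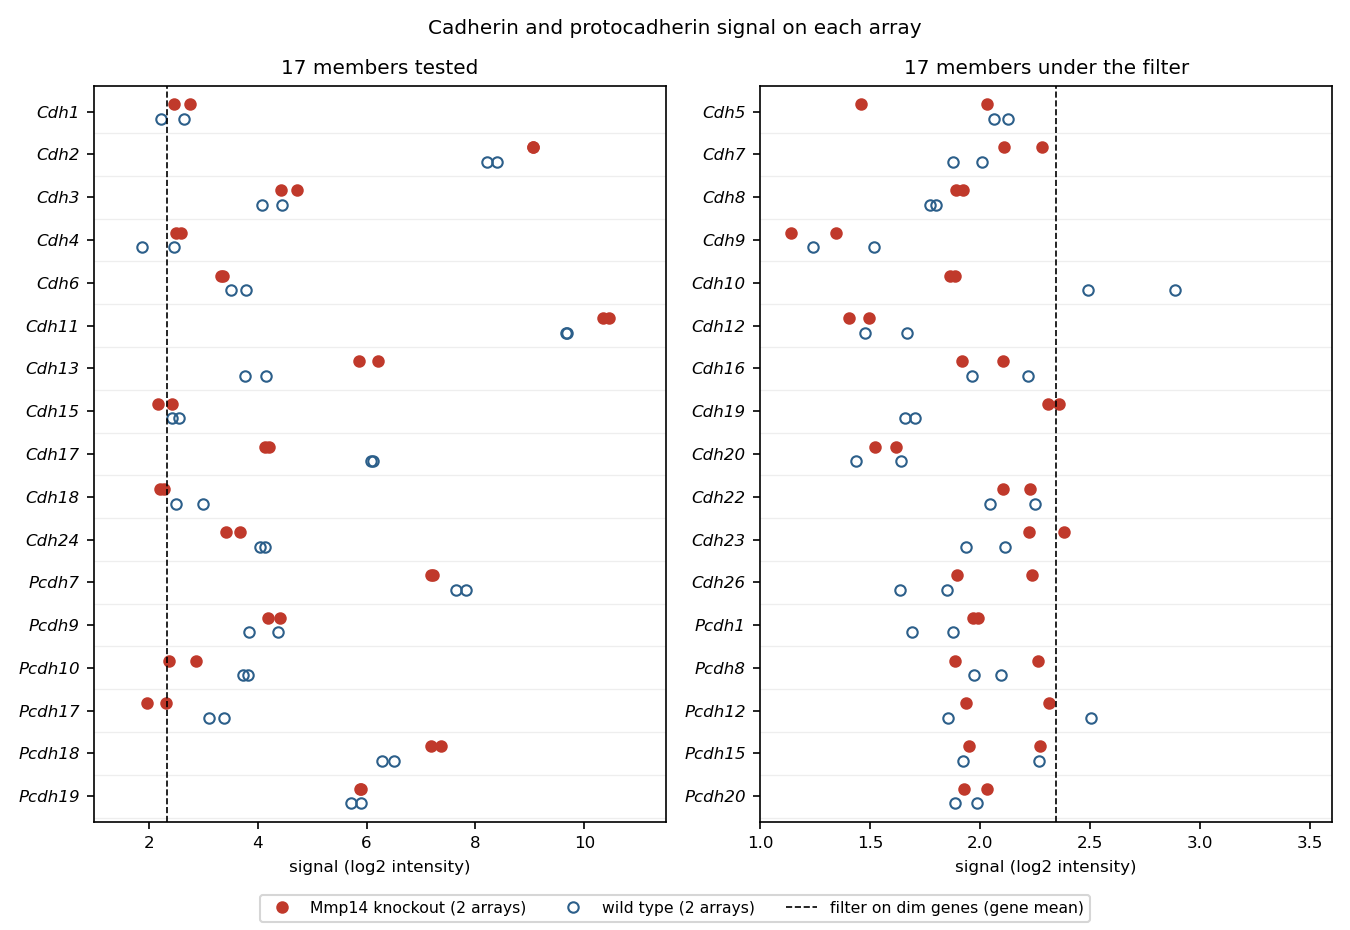
Signal (log2 intensity) of each of the 34 members on each array, with Mmp14 knockout arrays as filled red points, wild type arrays as open blue points and the filter on the gene mean (2.34) as a dashed line. On the left, the 17 tested members; on the right, with a narrower axis, the 17 under the filter. The widest gaps between groups are those of Cdh13, with knockout to the right, and Cdh17, with knockout to the left.

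Among the 5 type I classical cadherins, Cdh2 rose in Mmp14 knockout cells and the other 4 were not called. The Cdh2 signal was 9.06 and 9.05 in knockout arrays, against 8.39 and 8.22 in wild type arrays. Both knockout values lay above both wild type values, by a gap of 0.66. The difference was 0.75 ± 0.11 (SE, n = 2 arrays each), 1.68-fold, with an adjusted p of 0.0123 in limma. The second Cdh2 probe set, which read 6.42 and 6.46 in knockout arrays and 5.94 and 5.45 in wild type arrays, gave a difference of 0.74. Without knockout replicate 1 the Cdh2 difference was again 0.74 but its adjusted p was 0.0548 (limma).

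P-cadherin (Cdh3) read 4.72 and 4.43 in knockout arrays, against 4.45 and 4.07 in wild type arrays, and the groups overlapped. Its difference was 0.31, with a 95% confidence interval of -0.10 to 0.73. E-cadherin (Cdh1), the cadherin of epithelia, was dim on all 4 arrays, with 2.76 and 2.47 in knockout and 2.65 and 2.23 in wild type. Its difference of 0.17 had an interval of -0.27 to 0.60. R-cadherin (Cdh4) read 2.51 and 2.59 in knockout arrays, against 1.88 and 2.47 in wild type arrays, a difference of 0.38 that was not called with all arrays but was called without wild type replicate 2, at 0.67 (adjusted p = 0.0438, limma). The second probe set of Cdh4 gave -0.01. M-cadherin (Cdh15), known from muscle precursors, had a difference of -0.19 with an interval of -0.51 to 0.13.

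Of the 13 type II classical cadherins, 4 were tested: Cdh11 rose, Cdh24 fell, and Cdh6 and Cdh18 were not called. Cdh11 read 10.46 and 10.35 in Mmp14 knockout arrays, against 9.67 and 9.67 in wild type arrays. The wild type pair nearly coincided, and both knockout arrays lay above it. The difference was 0.73 ± 0.10 (SE, n = 2 each), 1.66-fold, with an adjusted p of 0.0105 in limma and of 0.0592 without knockout replicate 1. Cdh2 and Cdh11, the classical cadherins named above for the osteoblast lineage, thus had log2 differences of 0.75 and 0.73.

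Cdh24, a type II cadherin that binds catenins, read 3.68 and 3.42 in knockout arrays and 4.14 and 4.04 in wild type arrays. Its difference of -0.54 ± 0.13 (SE) reached an adjusted p of 0.0494 in limma, just under the threshold. The call was lost whenever 1 of the 4 arrays was left out, with adjusted p between 0.0664 and 0.203. K-cadherin (Cdh6) read 3.32 and 3.36 in knockout arrays, against 3.51 and 3.78 in wild type arrays. The groups did not overlap, but the adjusted p for its difference of -0.30 was 0.192 (limma). Cdh18 read 2.28 and 2.20 in knockout and 2.50 and 3.00 in wild type, a difference of -0.51 with an adjusted p of 0.127, or 0.0296 without wild type replicate 1.

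The other 9 type II genes lay under the filter. With no filter, 22180 genes entered the fit and 5.07% of them were called, and 9 of the 34 members were, 5 higher and 4 lower. That fit called Cdh10 and Cdh19 in addition, and no longer called Cdh24 or Pcdh7. Cdh10 read 1.89 and 1.86 in Mmp14 knockout arrays, against 2.88 and 2.49 in wild type arrays, a difference of -0.81 (adjusted p = 0.0332, limma with no filter). Cdh19, known from neural crest and Schwann cells, read 2.31 and 2.36 in knockout arrays, against 1.66 and 1.70 in wild type arrays, a difference of 0.65 (adjusted p = 0.0206 in the same fit). Both calls were lost when every probe set of the table entered 1 fit, with adjusted p of 0.158 for Cdh10 and 0.107 for Cdh19. Of the 5 Schwann and neural markers measured, none was called. S100b had a difference of 1.02 (adjusted p = 0.0604, limma), and the other 4 had negative differences: Tubb3 -0.28 and Erbb3 -0.17 among the tested, and Sox10 -0.48 and Gfap -0.20, both under the filter. The summed linear signal of the 5 markers was 49.0 and 64.4 in knockout arrays and 45.6 and 35.5 in wild type arrays. Without S100b the direction turned, with 17.5 and 17.7 in knockout arrays and 22.3 and 20.3 in wild type arrays. The part of these markers in the Cdh19 value was not tested.

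VE-cadherin (Cdh5), the cadherin of endothelial junctions, read 2.03 and 1.46 in knockout arrays and 2.13 and 2.06 in wild type arrays. Of the 7 endothelial markers, 6 were under the filter as well, Pecam1, Kdr and Tek among them. The exception was the transcription factor Erg, higher in knockout by 0.99 (adjusted p = 0.00409, limma). The summed linear signal of that list was 161.1 and 159.0 in knockout arrays and 91.1 and 88.5 in wild type arrays. Without Erg the sums overlapped, at 21.7 and 21.2 in knockout arrays and 19.1 and 21.4 in wild type arrays. The remaining type II genes, Cdh7, Cdh8, Cdh9, Cdh12, Cdh20 and Cdh22, had differences between -0.13 and 0.25 without a filter and were not called.

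The largest differences among the members belonged to a pair of cadherins outside the classical groups, and they ran in opposite directions. T-cadherin (Cdh13) has no cytoplasmic tail, is held in the membrane by a GPI anchor, and binds adiponectin and low-density lipoprotein. Its signal was 6.21 and 5.86 in Mmp14 knockout arrays, against 3.77 and 4.16 in wild type arrays. The lower knockout array exceeded the higher wild type array by 1.70. The difference was 2.07 ± 0.18 (SE, n = 2 each), 4.20-fold, with an adjusted p of 0.00223 in limma. It ranked 64 among the 12708 tested genes by absolute difference.

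LI-cadherin (Cdh17), first known from liver and intestine, went the other way. Its signal was 4.22 and 4.13 in knockout arrays, against 6.12 and 6.09 in wild type arrays. Each pair of replicates lay within 0.1 of each other, and the gap between the groups was 1.87. The difference was -1.93 ± 0.10 (SE, n = 2 each), 3.81-fold lower, with an adjusted p of 0.000966 in limma, and its rank was 83. Cdh13 and Cdh17 were the members whose calls held in each of the 12 alternative settings run, and the only 2 of the 9 called members that remained called when every probe set of the table was fitted together (adjusted p = 0.0448 for Cdh13 and 0.0300 for Cdh17). In that fit the adjusted p of the other 7 lay between 0.0946 and 0.230.

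None of the epithelial markers, which could accompany Cdh17 or Cdh1 in a mixed preparation, was called: 5 of 7 were under the filter, the 2 tested had no unadjusted p under 0.05 in limma, and their summed linear signal was 34.7 and 35.1 in Mmp14 knockout arrays and 31.2 and 34.8 in wild type arrays. Their part in the Cdh17 difference was not tested. Kidney-specific cadherin (Cdh16), the hair cell tip-link cadherin Cdh23 and Cdh26 were under the filter, and their differences without one were -0.08, 0.28 and 0.32, none of them called.

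**Figure D2:**
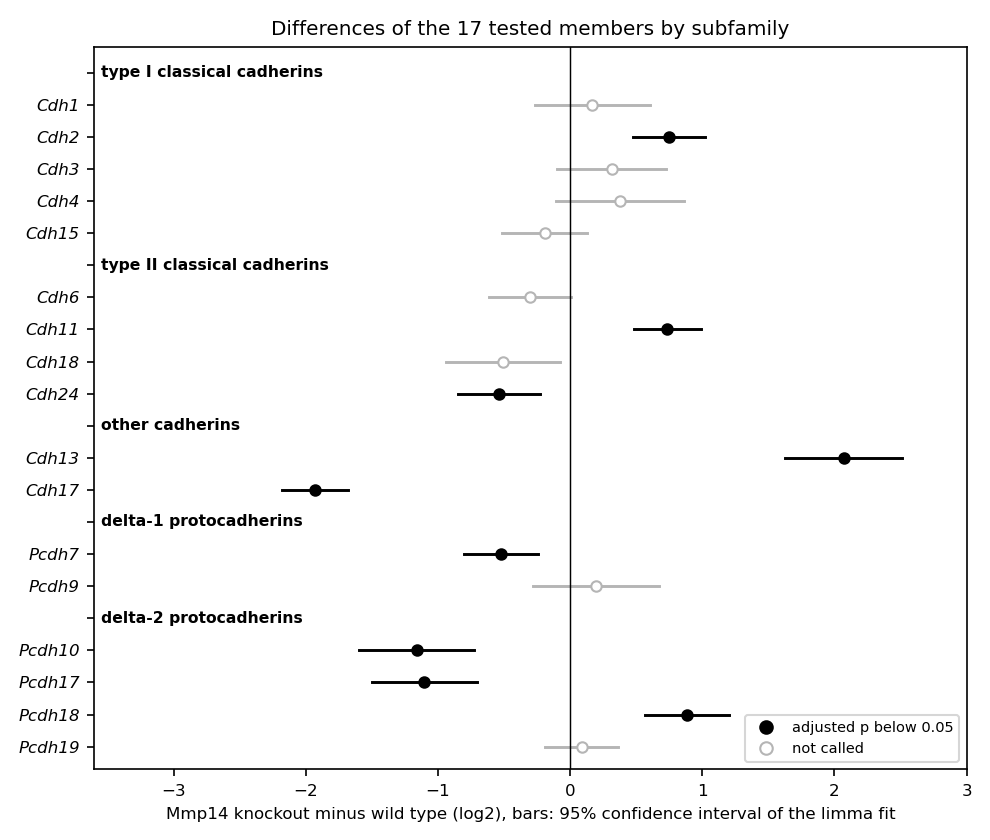
Difference of each of the 17 tested members (Mmp14 knockout minus wild type, log2), grouped by subfamily, with 95% confidence intervals from limma as bars; black points were called and open grey points were not. Cdh13 (2.07) and Cdh17 (-1.93) lie farthest from 0, and higher and lower calls occur within the type II, other cadherin and δ2 groups.

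The δ2 protocadherins moved in both directions. Of the 5 genes, 4 were tested: Pcdh18 rose, Pcdh10 and Pcdh17 fell, and Pcdh19 was not called. Their promoters are shown because 4 of the 5 share a short stretch before the start site although their signals differed in direction. Each window runs 5′ to 3′ from 250 bases before to 50 bases after the start of the gene, as given by RefSeq on GRCm38.p6, and the capitals mark the letters ATTGGNTGG. The windows are chr3:49757267-49757566 on the minus strand for Pcdh18, chr3:45378148-45378447 on the plus strand for Pcdh10, chr14:84443313-84443612 on the plus strand for Pcdh17 and chr14:79771263-79771562 on the minus strand for Pcdh8.
Pcdh18: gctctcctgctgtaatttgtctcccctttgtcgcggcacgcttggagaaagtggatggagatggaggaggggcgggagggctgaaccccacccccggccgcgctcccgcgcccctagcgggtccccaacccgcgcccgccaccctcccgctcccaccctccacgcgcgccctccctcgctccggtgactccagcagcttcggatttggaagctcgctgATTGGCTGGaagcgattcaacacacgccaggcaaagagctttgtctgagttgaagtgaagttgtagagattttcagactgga
Pcdh10: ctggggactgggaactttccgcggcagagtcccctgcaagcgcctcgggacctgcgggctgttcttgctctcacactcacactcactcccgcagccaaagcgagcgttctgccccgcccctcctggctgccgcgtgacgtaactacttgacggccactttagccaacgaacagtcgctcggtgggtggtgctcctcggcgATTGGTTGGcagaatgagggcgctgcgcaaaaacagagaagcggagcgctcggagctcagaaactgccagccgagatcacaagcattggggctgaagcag
Pcdh17: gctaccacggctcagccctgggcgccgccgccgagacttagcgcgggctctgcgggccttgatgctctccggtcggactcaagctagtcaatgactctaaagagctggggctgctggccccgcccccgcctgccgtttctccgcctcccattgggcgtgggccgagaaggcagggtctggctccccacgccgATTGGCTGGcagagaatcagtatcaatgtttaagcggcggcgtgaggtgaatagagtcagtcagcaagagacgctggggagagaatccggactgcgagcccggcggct
Pcdh8: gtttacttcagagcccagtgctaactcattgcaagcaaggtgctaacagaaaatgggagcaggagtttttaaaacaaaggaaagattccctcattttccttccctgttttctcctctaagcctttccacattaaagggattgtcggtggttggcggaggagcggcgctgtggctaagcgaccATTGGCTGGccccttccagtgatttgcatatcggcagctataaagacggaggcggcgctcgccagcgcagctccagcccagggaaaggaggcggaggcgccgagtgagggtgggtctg

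The stretch began at position -32 from the start site in Pcdh18, at -50 in Pcdh10, at -58 in Pcdh17 and at -68 in Pcdh8. The window of Pcdh19 held none. These letters were chosen after the sequences had been seen, so their count is a description. On either strand they occurred in 5 (20%) of the 25 windows available here, which belong to 22 of the members. The fifth was that of Cdh18. Over all genes they occurred in 650 of 32851 windows (1.98%). Cdh2, Cdh11, Cdh13 and Cdh17 had no window among the 25. The stretch contains the letters ATTGG, which read CCAAT on the other strand. CCAAT, on either strand and also chosen after the sequences were seen, was in 17 of the 25 member windows (68%) and in 37.4% of all windows. The E-box letters CACCTG were in 5 of the 25 (20%) and in 20.2% of all, and the TCF/LEF letters CTTTGAT were in 0 of the 25 and in 3.73% of all, each on both strands. The E-box windows were those of Cdh7, Pcdh15 and Pcdh7. Cdh7 entered with several start sites, each with the letters, so these windows are not separate genes. The windows of Pcdh18, Pcdh10 and Pcdh17 held 23, 24 and 26 CpG dinucleotides, where the median was 14 over the member windows and 7 over all windows.

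Pcdh18, whose cytoplasmic part binds the adaptor Dab1, read 7.37 and 7.18 in Mmp14 knockout arrays, against 6.50 and 6.28 in wild type arrays. Both knockout arrays were above both wild type arrays, by a gap of 0.68. The difference was 0.89 ± 0.13 (SE, n = 2 each), 1.85-fold, with an adjusted p of 0.0120 in limma, and the call held with each array left out in turn, most narrowly without knockout replicate 1 (0.0496).

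Pcdh10 (OL-protocadherin), which recruits the WAVE complex to cell contacts, read 2.87 and 2.37 in knockout arrays, against 3.74 and 3.83 in wild type arrays. The knockout arrays lay near the filter and 0.50 apart. The difference was -1.16 ± 0.18 (SE), 2.24-fold lower, with an adjusted p of 0.0134 in limma and of 0.0510 without wild type replicate 2. A further probe set, listed for Pcdh10 and a second gene together and so not used, gave 0.16. Pcdh17, known from presynaptic sites and growing axons, read 2.32 and 1.97 in knockout arrays, against 3.38 and 3.11 in wild type arrays. Its difference was -1.10 ± 0.16 (SE), 2.15-fold lower (adjusted p = 0.0119, limma), and was called with each array left out in turn. The knockout mean of Pcdh10 (2.62) lay near the filter and that of Pcdh17 (2.14) under it, and detection calls were not used here. These fold changes may therefore misstate the difference, in either direction.

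Pcdh10 and Pcdh18 are close neighbours in the RefSeq order of mouse chromosome 3, with 1 protein-coding gene between them, and their signals moved in opposite directions. Pcdh8 and Pcdh17, with 1 gene between them on chromosome 14, also differed, since Pcdh8 read 1.89 and 2.26 in knockout arrays and 2.09 and 1.97 in wild type arrays, all under the filter. Pcdh19, which joins N-cadherin in a complex in zebrafish and is mutated in a human epilepsy, read 5.89 and 5.90 in knockout arrays, against 5.71 and 5.90 in wild type arrays. Its difference was 0.09, with an interval of -0.19 to 0.37.

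Of the 3 δ1 protocadherins among the members, Pcdh7 (BH-protocadherin, from brain and heart) fell, Pcdh9 was not called and Pcdh1 was under the filter. Pcdh11x, a non-clustered protocadherin whose symbol ends in a letter, was listed with the atypical cadherins and was also under the filter. Pcdh7 read 7.22 and 7.19 in Mmp14 knockout arrays, against 7.63 and 7.82 in wild type arrays, with no overlap. The difference was -0.52 ± 0.11 (SE, n = 2 each), 1.44-fold lower, with an adjusted p of 0.0382 in limma. The call was lost without knockout replicate 1 (0.139), knockout replicate 2 (0.142) or wild type replicate 2 (0.111). Pcdh9 read 4.19 and 4.42 in knockout arrays, against 3.85 and 4.38 in wild type arrays. The wild type pair spread more widely than the groups differed, and the difference of 0.19 had an interval of -0.28 to 0.67. Pcdh12, Pcdh15 (the tip-link partner of Cdh23) and Pcdh20 were listed in neither the δ1 nor the δ2 group. They and Pcdh1 were under the filter, with differences between -0.06 and 0.19 without one.

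**Figure D3:**
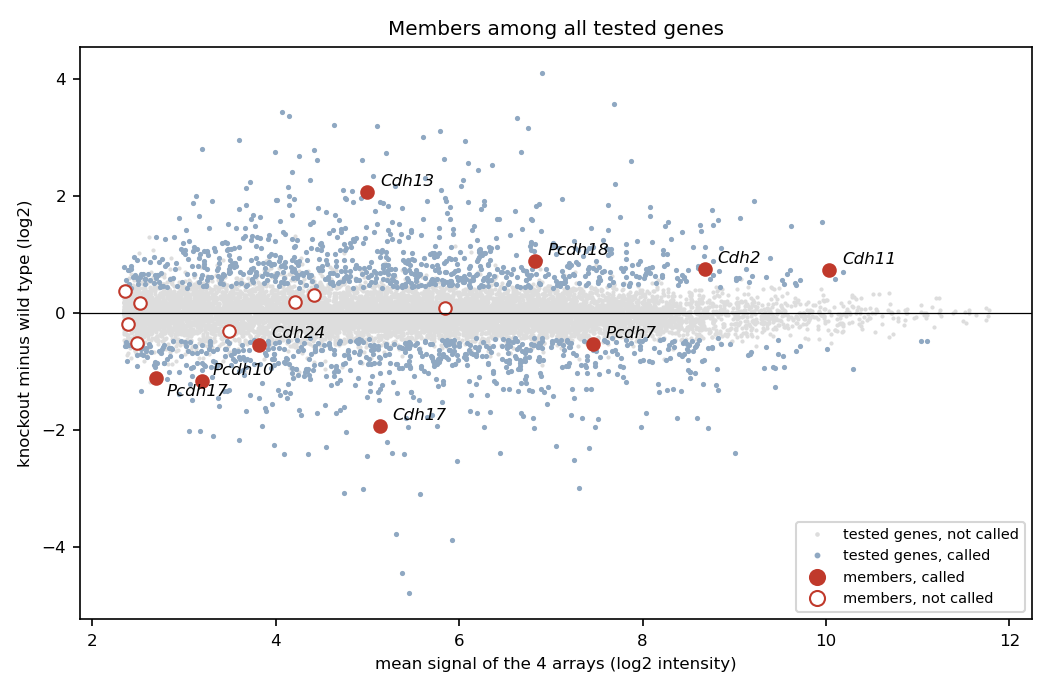
Difference (Mmp14 knockout minus wild type, log2) against mean signal of the 4 arrays (log2 intensity) for the 12708 tested genes, with called genes in blue, others in light grey and the 17 members in red (filled where called). The 9 called members run from mean signals near 2.7 (Pcdh17) to 10.0 (Cdh11), and among the members Cdh13 and Cdh17 lie farthest from 0.

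Over all 34 members the knockout and wild type arrays did not overlap in 20, of which 11 were higher and 9 lower in knockout. That is 58.8% of the members, against 47.6% of all 22180 genes. The median gap between the 2 replicates of a group was 0.17 for members in knockout and 0.20 in wild type, against 0.12 and 0.14 over all genes. Several members stand next to each other in the genome without another protein-coding gene between them. In the run Cdh8, Cdh11, Cdh5 only Cdh11 passed the filter. In the run Cdh6, Cdh9, Cdh10, Cdh12 only Cdh6 did, and the 4 differences were -0.30, -0.13, -0.81 and -0.12. Cdh3 and Cdh1, also adjacent, both went without a call.

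**Figure D4:**
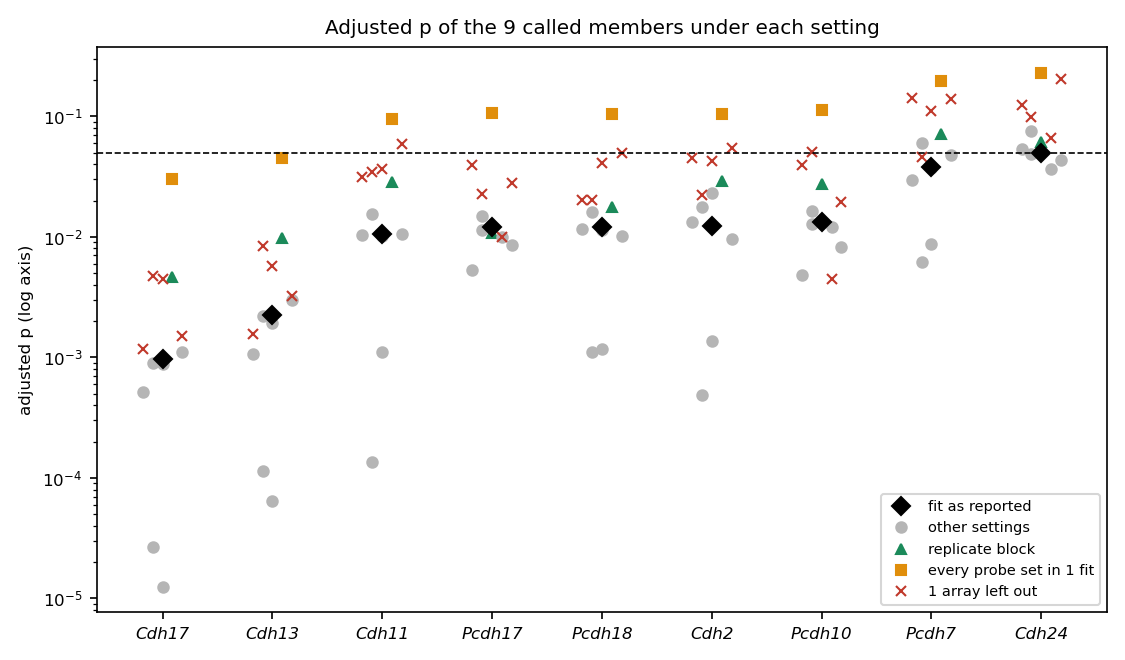
Adjusted p (log axis) of each of the 9 called members under the fit as reported (black diamonds) and under each alternative setting, with the threshold of 0.05 dashed. All settings lie below the line for Cdh17 and Cdh13. With every probe set in 1 fit (orange squares) the other 7 members lie above it. Cdh24 and Pcdh7 straddle the line in several further settings, and Cdh2, Cdh11 and Pcdh10 also have a point above it with 1 array left out.

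Of 18 catenins and adherens junction partners, 15 were tested, 1 was called higher, 2 were called lower and 12 were not called. The 3 calls are 20% of those tested, beside 11.3% over all tested genes, and the median difference was 0.07 (all tested genes, -0.0041). The α-catenin-like Ctnnal1 rose, at 6.25 and 6.49 in Mmp14 knockout arrays, against 5.55 and 5.30 in wild type arrays. Its difference was 0.94, with an adjusted p of 0.0123 in limma. Arvcf, a relative of p120-catenin, fell, at 4.80 and 4.70 in knockout arrays, against 5.70 and 5.34 in wild type arrays, a difference of -0.77 (adjusted p = 0.0256). Afadin (Afdn), which links nectins to actin, fell by 0.56 on the log2 scale (adjusted p = 0.0240). The calls of Arvcf and Afdn were each lost without knockout replicate 1, knockout replicate 2 or wild type replicate 1. δ-catenin (Ctnnd2) had a difference of -0.59 with an adjusted p of 0.0556, and passed the threshold when arrays were centred on their medians (0.0398) or quantile normalized (0.0491). β-catenin (Ctnnb1), named here after its value was seen, read 9.46 and 9.58 in knockout arrays, against 9.58 and 9.54 in wild type arrays, and its difference of -0.04 was not called.

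None of the 7 genes measured for cadherin cleavage and turnover was called in limma or had an unadjusted p under 0.05. Their differences lay between -0.17 and 0.09, with a median of -0.10. The list holds ADAM proteases and subunits of γ-secretase, which cut cadherins outside and within the membrane. Psen2 had -0.17, Adam15 had -0.16, Psenen had -0.12 and Ncstn had -0.10. The 9 desmosomal cadherins were all under the filter.

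Among 19 atypical cadherins and cadherin-related genes, 6 were tested, 2 were called higher, 1 was called lower and 3 were not called (50% called, beside 11.3% of all tested genes). The median difference was 0.36 over the 6 tested and 0.0030 over all 19. Fat4, a giant cadherin that binds Dchs1 and acts in planar polarity, read 9.70 and 9.54 in Mmp14 knockout arrays, against 8.10 and 7.96 in wild type arrays. The groups were far apart, and the difference of 1.59 ± 0.12 (SE) had an adjusted p of 0.00139 in limma. Fat1 was higher by 0.67 (adjusted p = 0.0378) and Fat3 was lower, at -0.56 (adjusted p = 0.0209). The Fat3 call was lost with any 1 of the 4 arrays left out (0.0572 to 0.0991), and the Fat1 call without knockout replicate 1 (0.156), wild type replicate 1 (0.108) or wild type replicate 2 (0.0684). Dchs1 read 4.26 and 4.29 in knockout arrays, against 4.06 and 3.74 in wild type arrays, and its difference of 0.38 was not called.

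Of 23 clustered protocadherins, which give neurons their surface identity and whose near-identical copies may share probe signal, 15 were tested. The list held Pcdhb genes and Pcdhga10, and no Pcdha gene, so it mainly covers the Pcdhb cluster. Pcdhb6 alone was called, higher by 0.49 (adjusted p = 0.0447, limma), and the call was lost with any 1 array left out (0.0657 to 0.210). That call is 6.67% of those tested, beside 11.3% over all tested genes. Pcdhb22 (-0.44), Pcdhb19 (0.37) and Pcdhb20 (0.36) were not called.

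**Figure D5:**
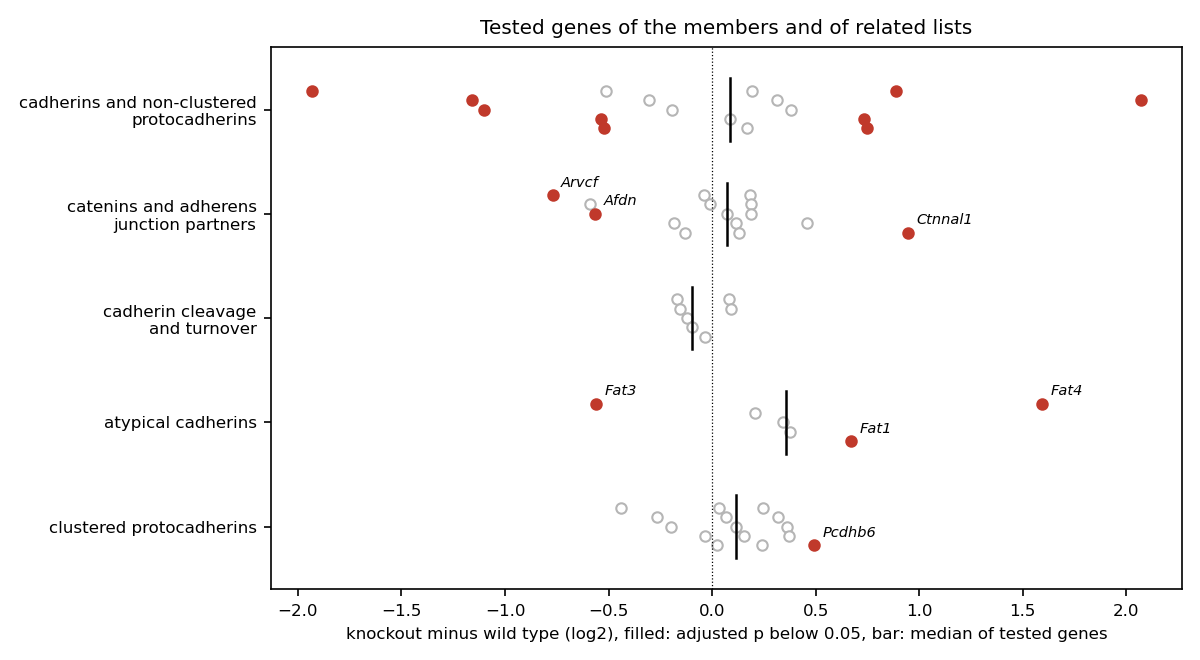
Differences (Mmp14 knockout minus wild type, log2) of the tested genes among the cadherins and non-clustered protocadherins and in 4 related lists, each point a gene, filled red where called, with a bar at the list's median. The 7 cleavage and turnover genes lie between -0.17 and 0.09, while the member genes spread from -1.93 to 2.07.

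Markers of other cells that could be present moved in part. Among 6 skeletal muscle markers, Myod1, Myf5 and Myog were under the filter, but Pax7, the satellite cell factor, was higher in Mmp14 knockout cells by 1.31 (adjusted p = 0.00221, limma). Acta1 (0.34) and Des (-0.14) were not called. Without a filter Myod1 had a difference of 0.02, Myog -0.12 and Myf5 -0.19. The summed linear signal of that list was 99.1 and 110.2 in knockout arrays and 83.3 and 75.5 in wild type arrays. The brightest gene weighs most in this sum. It was Acta1, with log2 signals of 5.86 and 6.14 in knockout arrays and 5.81 and 5.50 in wild type arrays. Pax7, with 4.55 and 4.36 in knockout arrays and 3.17 and 3.12 in wild type arrays, also enters the difference between the sums. The sum without Pax7 was not computed. Among smooth muscle and pericyte markers, 5 of 6 were tested and Rgs5 alone was called, lower at -1.07 (adjusted p = 0.0102, limma). Acta2 (-0.14) and Notch3 (-0.20) had negative differences, and Cspg4 (0.29) and Myh11 (0.11) had positive ones, none of them called. The list sums were 2749 and 3026 in knockout arrays and 3176 and 3122 in wild type arrays. They mostly reflect Acta2, by far the brightest gene of the list, and say little about Rgs5. Of the 6 macrophage and leukocyte markers 3 were tested and none was called in limma, while 1 had an unadjusted p under 0.05; their summed linear signal was 42.85 and 49.97 in knockout arrays and 54.81 and 47.86 in wild type arrays. The part of these markers in the differences of the Cdh and Pcdh genes was not tested.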

How the data were processed

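Gene expression was measured in 4 samples of SSCs, 2 per group, grouped by the labels. Per the labels' protocols, cDNA was made from 10 ng of RNA by whole-transcriptome amplification, and 3.75 µg of it was biotinylated. The authors deposited log2 intensities for 41345 probe sets, and the submitters' processing notes name oligo and limma without version or role. The background correction and normalization are not given in the sources used here. The lowest log2 value was 0.43 and the highest 12.2. Array medians were 2.37 and 2.36 in knockout, and 2.32 and 2.36 in wild type. Correlations over genes were 0.994 between knockout arrays, 0.992 between wild type arrays and 0.970 to 0.975 between groups. The number of arrays limits the precision.

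Of the probe sets, 23521 had 1 gene symbol in the platform annotation, 1814 had several and 16010 had none listed; 23328 of the 1-symbol probe sets matched RefSeq (GRCm38.p6) by Entrez ID. Each gene was read at its brightest probe set. Genes with a mean of at least 2.34 were fitted with limma 3.58.1 in R 4.3.3 (lmFit, eBayes, two-sided), with Benjamini-Hochberg adjustment over all of them. The prior had 3.99 degrees of freedom and the residual 2. No sample was dropped or imputed. The fit was tested on simulated data. Alternatives were no filter, a stricter filter (4.76), the replicate block, quantile normalization, median centring, a trended robust prior, averaging each gene's probe sets, every probe set in 1 fit, and each array left out.

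The members and the gene lists were chosen with earlier results of these data known. Named genes were Mmp14, all members, and up to 4 tested genes of each related list, called genes first by size of change; markers and sex-linked genes were read as lists. Promoter windows came from RefSeq. Protein sequences were not used here.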

Additional observations from a re-analysis of the deposited data

How the results depend on the processing

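The 1439 calls over all tested genes (788 higher, 651 lower in knockout) became 1124 without the filter, 1644 of 7583 genes with the stricter filter, 2099 with a trended robust prior and 188 when every probe set entered 1 fit. With 1 array left out they numbered 687 to 1131, and the lone array of a group is then assumed to vary like the others. The members called higher, 4 as reported, were 1 with every probe set in 1 fit and 2 to 5 with an array left out. The members called lower, 5 as reported, were 2 with the stricter filter, which leaves Pcdh10, Pcdh17 and Cdh24 untested, 1 with every probe set in 1 fit, and 2 to 5 with an array left out. The 2 higher members left without knockout replicate 1 were Cdh13 and Pcdh18. The gap between replicates 1 and 2 in knockout was nearly uncorrelated with that in wild type (-0.04). With 2 arrays per group this is only 1 contrast. It cannot tell whether arrays with the same number were matched, and the labels do not say. With the replicate block 1057 genes, 4 higher members and 3 lower members were called. Pcdh7 (0.0707) and Cdh24 (0.0616) lost their calls in that fit. Over the 17 tested members, 165 of 192 alternative values kept direction and side of the threshold, 22 lost a call, 2 gained one and 3 changed sign, none of the 3 in a called member. With an array left out, Cdh1 ranged over -0.042 to 0.379, Pcdh19 over -0.0072 to 0.183, Pcdh9 over -0.074 to 0.459, Ctnnb1 over -0.098 to 0.021 and Uty over -0.58 to 0.083. Quantile normalization and centring, which moved the median difference by -0.021 and -0.022, changed no member's call or direction. The causes of lost calls were not tested. Dim signal limits what can be said of the 17 members under the filter.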
